A study of Mus musculus with 24 samples.

Results

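Total H2AX was compared with input DNA in wild-type (WT) female mouse cells, across 1 Mb bins of the 19 autosomes. The cells have a C57BL6/CAST hybrid background, and the labels call them TTF, an abbreviation they leave unexplained. The members are 2 chromatin immunoprecipitation (ChIP-seq) libraries made with an antibody against H2AX and 2 input libraries of WT cells, chosen by the names of their columns in a series of 24 labelled samples. A matching set of 4 libraries from SIRT7-knockout (KO) cells of the same hybrid background served for 1 comparison. By their labels, all of these cells, WT and KO alike, received 5 Gy of X-rays, recovered for 30 minutes and had their chromatin sheared to 300 to 500 bp. The columns of counts end in NT or Xray, although every label states X-ray treatment, so the libraries are called NT-named and Xray-named here and are treated as 2 replicates of each group. The labels give 2 WT samples per assay, whereas the 2 deposited tables hold 3 distinct WT pairs: a second table carries the labelled replicate numbers, its replicate 2 is identical to the NT-named pair, and its replicate 1 is a separate pair, called the third pair here. The Xray-named pair was matched to its group by antibody and genotype but to no single labelled sample, so the treatment stated for it is that of its group's labels. No label says whether the KO cells are 1 clone, or whether the 2 libraries of a group came from separate cultures, so p-values measure only the spread between these libraries, which may be technical.

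H2AX is a variant of histone H2A that takes the place of the ordinary histone in a part of all nucleosomes, whether or not the DNA is broken. At a break, the kinases ATM, ATR and DNA-PK phosphorylate its tail, which gives γH2AX and recruits repair factors. The amount of total H2AX in a region limits how much γH2AX can form there, so its distribution is the ground on which maps of γH2AX are read. SIRT7 is a deacylase that acts on chromatin, and its loss is what sets the KO cells apart.

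The 4 WT libraries held 180868816 to 268180310 reads, with a median of 60771 to 90204.5 reads per bin, and 2414 of 2473 autosomal bins had a mean count of at least 100 over them. In the shallowest of them, the NT-named H2AX library, counting error was 0.406% for the median bin and 2.08% for the thinnest kept bin, of 2312 reads, beside a biological coefficient of variation between libraries of 1.81%. Reads in a bin are given as RPM, the number per 1000000 reads in all kept autosomal bins of the library, and the H2AX over input ratio on the log2 scale. A ratio of this kind is relative: it says where H2AX reads were more or less frequent than input reads, not how much H2AX the genome holds. The bin of Sirt7 itself, chr11:120000001-121000000, was at 561 and 591 RPM in the H2AX libraries, against 444 and 435 in input. A single bin on chromosome 2, chr2:98000001-99000000, which holds no protein-coding gene start, took 6.61% and 6.03% of the kept reads in H2AX, against 6.55% and 6.50% in input, and its ratio was not called different from 0. A gene start here is the lower coordinate of a gene's annotated span on either strand, so for a minus-strand gene it is the end of the gene.

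H2AX was unevenly spread over the autosomes, with small differences over wide regions. Of 2414 bins, 838 were higher and 996 were lower in H2AX than in input (edgeR's quasi-likelihood test, two-sided, Benjamini-Hochberg adjusted p under 0.05), 76.0% of the bins tested, with 34.7% higher and 41.3% lower. At least 0.1 on the log2 scale in addition was reached by 57.0% of bins, 641 higher (26.6%) and 734 lower (30.4%). The fitted log2 ratio had an SD of 0.16 over bins, and the bin at the 90th percentile was 1.33-fold above the bin at the 10th. In every bin called, both H2AX libraries lay beyond both input libraries. Without calls, H2AX libraries lay above both input libraries in 40.7% of bins and below both in 49.1%. Leaving out the Xray-named H2AX library brought the calls to 930, whereas 1485 to 1489 were made without another library.

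Of the 10 bins with the highest ratios, 4 lay on chromosome 4 and the rest on 6 other chromosomes, and 7 held 10 or more protein-coding gene starts. The highest, chr4:153000001-154000000, starts genes that include those for the junction-associated protein Ajap1 and the DNA fragmentation factor Dffb. It held 339 and 383 RPM in the H2AX libraries, against 256 and 265 in input, a log2 ratio of 0.47 ± 0.05 (SE, n = 2 libraries each, edgeR adjusted p = 1.83e-05) or 1.39-fold. The bins on either side of it were among the 10 as well. The bin of Acot7, an acyl-CoA thioesterase, and Kcnab2, a potassium channel subunit, was at 379 and 415 RPM in H2AX, against 290 and 291 in input (log2 ratio 0.45). The bin of Prdm16, a transcription factor of brown fat, and of the p53 relative Trp73 was at 345 and 394 in H2AX, against 274 and 280 in input (0.42).

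On chromosome 17 the bin of the histone demethylase Kdm4b and the phosphatase Ptprs, with 40 protein-coding gene starts, held 608 and 642 RPM in H2AX, against 462 and 455 in input (log2 ratio 0.45 ± 0.03, edgeR adjusted p = 4.34e-06). On chromosome 10 the bin of the histone methyltransferase Dot1l, with 53 gene starts, held 710 and 739 in H2AX, against 544 and 530 in input (0.43). The choice of the 10 bins required both H2AX values to stand above both input values. The other 5 of the 10 highest bins had log2 ratios of 0.41 to 0.42, and their genes include Igsf21, the spindle checkpoint gene Mad1l1, the synaptic scaffold gene Dlg2, the TFIID subunit gene Taf4 and the corepressor gene Cbfa2t3. The Dlg2 bin stood out by its input: 779 and 734 RPM in H2AX lay above 610 and 527 in input, a wider gap between input libraries than in the other 9. Its call was lost without the NT-named H2AX library (log2 ratio 0.37, edgeR adjusted p = 0.135) and without the Xray-named one (0.45, edgeR adjusted p = 0.112).

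**Figure D1:**
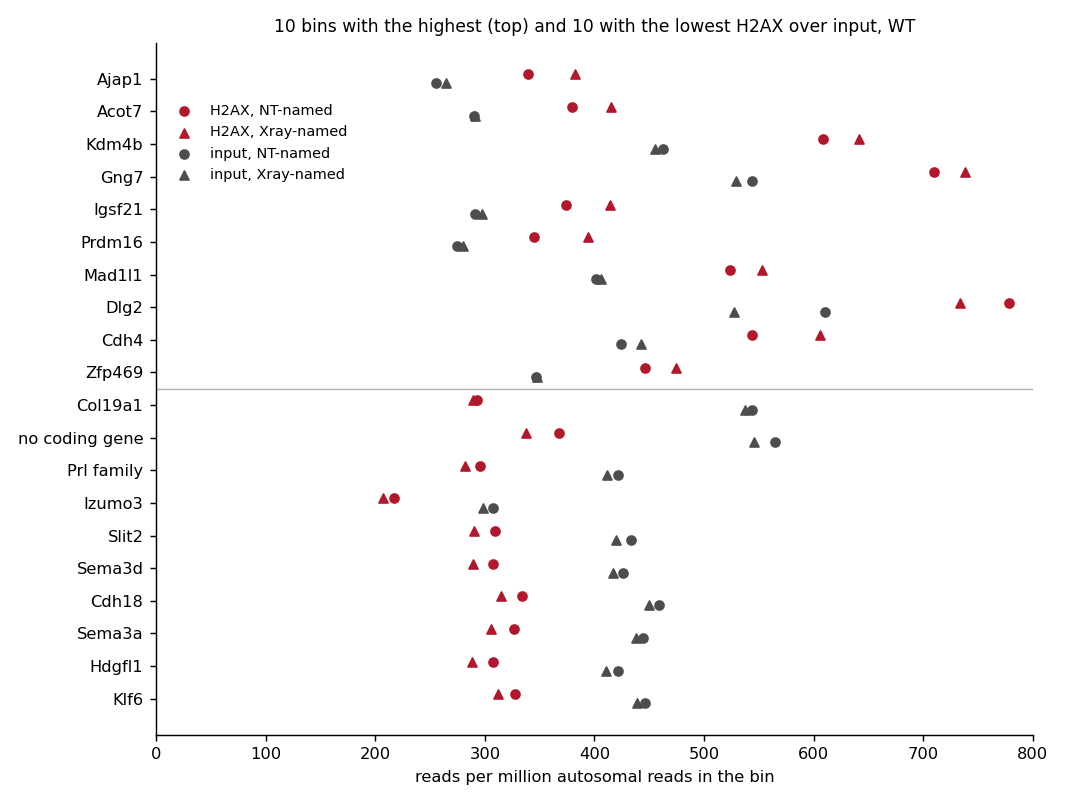
RPM relative to autosomal reads (x axis) in the 10 bins with the highest and the 10 with the lowest H2AX over input ratio, each bin named by its longest protein-coding gene (the Prl cluster by its family). H2AX libraries are red and input libraries grey, with circles for NT-named and triangles for Xray-named libraries. The choice of bins required the 2 red points to lie on 1 side of the 2 grey points.

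The 10 bins with the lowest ratios were gene-poor, except for 1 gene cluster. The bin chr13:27000001-28000000 starts 21 protein-coding genes, all 21 of the Prl family, prolactin-like hormones of the placenta and pituitary. It held 296 and 282 RPM in H2AX, against 422 and 412 in input (log2 ratio -0.53 ± 0.03, edgeR adjusted p = 2.85e-06). The bin before it, with Hdgfl1 as its only coding gene start, was at 307 and 288 in H2AX, against 421 and 410 in input (-0.48). The bins of Slit2, an axon guidance ligand, and of the semaphorins Sema3d and Sema3a, guidance cues as well, lay on chromosome 5 with ratios of -0.51, -0.50 and -0.48. The bins of the sperm gene Izumo3, the cadherin Cdh18 and the transcription factor Klf6 were at -0.51, -0.49 and -0.47. A bin of chromosome 10 with no coding gene start, chr10:16000001-17000000, was at 368 and 338 RPM in H2AX, against 565 and 546 in input (-0.65), and the bins on either side of it were at -0.46 and -0.37.

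The lowest ratio of all belonged to chr1:24000001-25000000, with the collagen gene Col19a1, Fam135a and Lmbrd1, a gene of vitamin B12 handling. It held 293 and 289 RPM in H2AX, against 543 and 537 in input, a log2 ratio of -0.89 ± 0.02 (edgeR adjusted p = 1.29e-08) or 0.538-fold. In this bin the H2AX reads resembled those of its neighbours and the input reads did not. The bin before it was at 297 and 290 in H2AX, against 319 and 318 in input, and the bin after it at 272 and 267 in H2AX, against 285 and 286 in input. The annotation places Gm10925, a pseudogene with the synonym mt-Atp6, a gene of the mitochondrial chromosome, at chr1:24613971-24614651 within the bin. Mitochondrial DNA is not packed in nucleosomes, and reads on the mitochondrial chromosome were at 7.54 and 6.66 RPM in H2AX, against 1764 and 1709 in input, a ratio of 0.00428 in the NT-named and 0.0039 in the Xray-named pair. Input of KO cells had 2299 and 2329 RPM on the mitochondrial chromosome with 601 and 615 in the chromosome 1 bin, and input of the third WT pair had 1255 with 468. The part that mitochondrial reads play in the ratio of this bin was not tested.

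The promoters of these bins were compared by their CG pairs, although a 1 Mb bin cannot place H2AX at a promoter. Of the first named gene in each bin that has an entry in RefSeq's promoter table (GRCm38.p6, 250 bases before to 50 after the start), the 10 from the highest bins held 6 to 51 CG pairs (median 24.5), and the 8 from the lowest held 0 to 30 (median 6). Over all 16457 autosomal promoters the median was 14, and 95.0% held at least 1 CG. The promoter in the highest bin, of Ajap1 (chr4:153482781-153483080, minus strand), and that of the gene naming the Prl cluster, Prl3a1 (chr13:27259239-27259538, plus strand), are shown as examples, with each CG in capitals. CG reads the same on both strands, so a search of 1 strand covers both.
Ajap1: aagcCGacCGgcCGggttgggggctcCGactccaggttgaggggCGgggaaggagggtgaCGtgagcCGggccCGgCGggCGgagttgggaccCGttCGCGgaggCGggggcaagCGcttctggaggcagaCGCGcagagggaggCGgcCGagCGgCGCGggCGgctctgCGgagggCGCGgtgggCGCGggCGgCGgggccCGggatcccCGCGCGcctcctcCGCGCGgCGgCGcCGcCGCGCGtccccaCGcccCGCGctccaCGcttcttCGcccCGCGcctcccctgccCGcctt
Prl3a1: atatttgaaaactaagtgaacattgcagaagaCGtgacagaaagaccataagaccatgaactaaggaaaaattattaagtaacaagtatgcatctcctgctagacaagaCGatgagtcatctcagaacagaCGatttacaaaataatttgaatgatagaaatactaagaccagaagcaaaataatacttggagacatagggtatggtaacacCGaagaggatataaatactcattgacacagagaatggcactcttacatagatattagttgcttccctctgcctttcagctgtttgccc
The Ajap1 sequence holds 51 CG pairs, more than 99.1% of the promoters, and the Prl3a1 sequence holds 4. The sets overlapped more than these examples do. Among the highest bins, Acot7 and Cbfa2t3 held 6 and 10. Among the lowest, Klf6 and Slit2 held 23 and 30, and Col19a1, in the lowest bin of all, held 16. Over the 1924 bins with an entry, the link was loose: the Spearman correlation of the median CG count of a bin's promoters with the log2 ratio was 0.21, a description over bins that share libraries and neighbours. From the lowest to the highest quartile of that count, the median log2 ratio was -0.053, 0.019, 0.055 and 0.021, so the bins richest in CG were not the highest. The quartiles also differed in gene count, with medians of 8, 7, 9 and 5 gene starts in the same order. In the 541 bins with 5 to 9 genes, the Spearman correlation was 0.23.

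The third WT pair, which the labels number as replicate 1, had no part in the fit and gave a check of the pattern. Of the 838 higher bins, 838 were above 0 in the third pair, and of the 996 lower bins, 993 were below 0. The ratios per bin correlated with r = 0.99 between the NT-named and Xray-named pairs, 0.95 between the NT-named and the third pair, and 0.97 between the Xray-named and the third pair (2414 bins, a description, since bins are not independent).

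The pairs differed in how far the bins spread. The SD of the log2 ratio over bins was 0.15 in the NT-named pair, 0.18 in the Xray-named pair and 0.33 in the third pair. The wider spread moved with the H2AX library and not with the input: the third pair's H2AX library over the NT-named and Xray-named input libraries had an SD of 0.36 each, and the NT-named and Xray-named H2AX libraries over the third pair's input had 0.12 and 0.16. The third pair was also the shallowest, with 88317834 reads in H2AX and 157244803 in input, and whether depth has a part in its spread was not tested. Of the 20 bins named above, 19 were further from 0 in the third pair than in the Xray-named pair, the exception being the chromosome 1 bin of Col19a1, at -0.82 in the third pair. The Dlg2 bin reached 0.89 there and the gene-free bin of chromosome 10 reached -1.13. Between the pairs, the size of the ratios thus differed more than their direction. When the WT pairs of the second table (the NT-named and the third pair) were fitted instead, edgeR called 0 bins, with 649 at an unadjusted p under 0.05, whereas DESeq2 called 994 and edgeR with the pair as a block called 691.

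**Figure D2:**
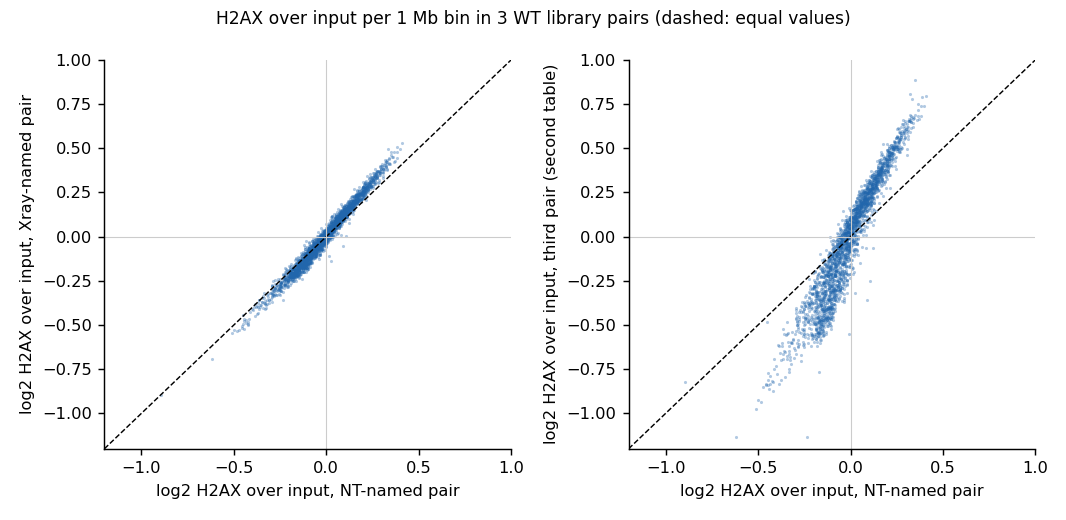
Log2 H2AX over input of each of 2414 bins in the NT-named pair (x axes) against the Xray-named pair (left) and the third WT pair (right), with a dashed line of equal values. The cloud is tight and a little steeper than the line on the left (SD 0.18 against 0.15), and more than that on the right (SD 0.33).

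H2AX over input followed gene density. The 287 bins with no protein-coding gene start had a median log2 ratio of -0.14, and 232 of them were lower and 16 higher, against a background of 41.3% lower and 34.7% higher over all bins. The median was -0.083 in the 782 bins with 1 to 4 genes and -0.0059 in the 594 bins with 5 to 9. It was 0.083 in the 481 bins with 10 to 19 genes, where 283 were higher and 78 lower, and 0.15 in the 270 bins with 20 or more, where 201 were higher and 34 lower. The order was the same in each WT pair, with medians of -0.12, -0.16 and -0.40 in gene-free bins and 0.13, 0.17 and 0.32 in the densest bins for the NT-named pair, the Xray-named pair and the third pair. Spearman's rho between gene count and log2 ratio was 0.55 over 2414 bins, and it was positive within each of the 19 chromosomes, between 0.29 and 0.71. On each chromosome the median of bins with at least 10 genes was above that of bins with under 5, by 0.093 to 0.34. Base composition of whole bins was not analysed here, so gene density and GC content cannot be told apart.

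**Figure D3:**
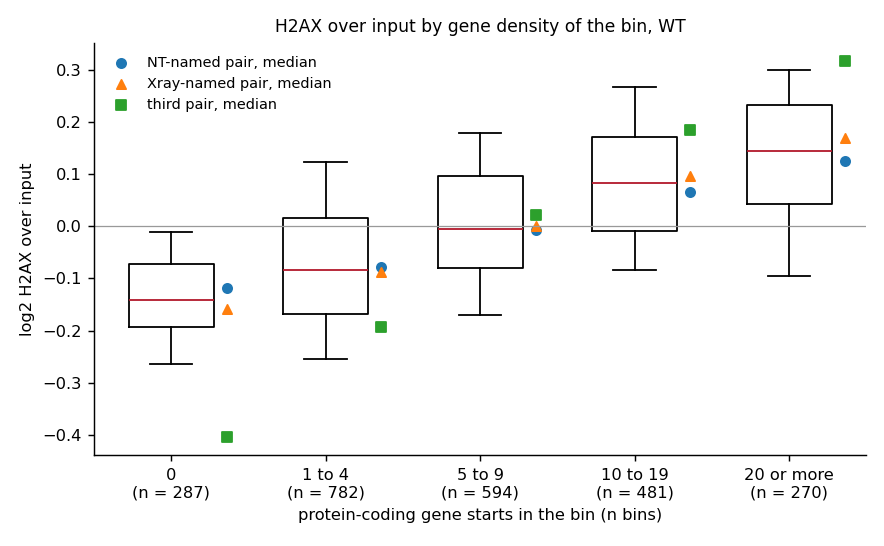
Fitted log2 H2AX over input (y axis) of bins grouped by their number of protein-coding gene starts (x axis). Boxes span the quartiles with the median in red, whiskers reach the 10th and 90th percentiles, and symbols give the median of each WT library pair, which climbs with gene density from -0.12 to 0.13 in the NT-named pair.

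The dense bins that went the other way were largely clusters of related genes. Of the 34 bins with 20 or more genes and lower H2AX, 27 hold members of a gene family list, 21 of them olfactory receptor genes, which encode odorant receptors of the nose. This split was made after the values were seen and is given as counts. The 78 dense bins with a listed family or the Prl cluster comprised 34 higher and 28 lower bins with a median of 0.013, and the other 192 dense bins comprised 167 higher and 6 lower bins with a median of 0.19. Over all densities, where 41.3% of bins were lower and 34.7% higher, 28 of 53 bins with olfactory receptor genes were lower (52.8%) and 12 higher (22.6%), with a median of -0.069. Of 12 bins with vomeronasal receptors of the Vmn2r family, 8 were lower and the other 4 did not pass the test (median -0.093), whereas the 17 bins of the Vmn1r family split into 6 higher and 6 lower, 35.3% each and near the shares of all bins. Clusters of zinc finger (Zfp) genes, mostly repressors of transcription, were higher in 16 of 20 bins (80.0%) and lower in 3 (median 0.097). Bins of keratins and keratin-associated proteins, the structural proteins of skin and hair, were higher in 4 of 6 and did not pass the test in 2. The zinc finger and keratin bins held medians of 24.5 and 36.5 gene starts, and 74.4% of all bins with 20 or more were higher.

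Bins of housekeeping genes, which serve basic functions in all cells, were among the higher ones: 14 of 17 rose above input (82.4%, against 34.7% of all bins) and the other 3 did not pass the test, with a median of 0.20, beside -0.016 over all bins. They held a median of 21 gene starts, beside 5 over all bins, and 74.4% of all bins with 20 or more were higher. The bin of Actb, cytoplasmic actin, had ratios of 0.31 and 0.38 in the NT-named and Xray-named pairs and 0.57 in the third pair. The bin of Eef2, a translation elongation factor, had 0.29, 0.38 and 0.60 in the same order, and that of the ribosomal protein Rplp0 had 0.26, 0.33 and 0.56. The bins of Eef1a1, Tbp and Sdha were at -0.023, -0.028 and -0.016 in the fit and did not pass the test. Collagen and other fibroblast genes lay on both sides, 8 bins higher and 8 lower of 18, 44.4% each (median 0.014). The bin of Col5a1, a fibrillar collagen, was at 0.37 and that of Col1a1, the main collagen of connective tissue, at 0.15, whereas the bin of Col3a1 was at -0.36 and that of Prrx1, a mesenchymal transcription factor, at -0.27.

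Among DNA damage response genes, 11 of 17 bins were higher and 3 lower, 64.7% and 17.6%, against 34.7% and 41.3% of all bins (median 0.081). These bins held a median of 18 gene starts, beside 5 over all bins, and 58.8% of all bins with 10 to 19 genes were higher. The bin of H2ax itself, chr9:44000001-45000000, was at 0.24 ± 0.02 (SE, n = 2 libraries each), with 0.22 and 0.25 in the NT-named and Xray-named pairs and 0.42 in the third. The bins of Mdc1, which binds γH2AX, and of the ubiquitin ligase Rnf8, which acts after it, were at 0.22 and 0.27, and the bin of Brca1, a recombination repair gene, was at 0.17. The bins of Prkdc, the catalytic subunit of DNA-PK, and Nbn, a break sensor, were at -0.19 and -0.11, and that of the kinase Atm was at -0.056. The Nbn call was lost without either H2AX library, and the Atm call with TMM or DESeq2 size factors and without any library other than the NT-named H2AX one. The bins of Atr, Chek1 and Trp53bp1 were at -0.039, -0.029 and 0.032 and did not pass the test. Of 10 bins of p53 target genes, 7 were higher (70.0%) and 3 lower (30.0%), with a median of 0.12. These held a median of 15 gene starts, in the same density class. The bin of the death factor gene Bax was at 0.27, and that of the cell cycle inhibitor gene Cdkn1a was the bin of Rnf8. The 3 lower bins were those of Ccng1 (-0.15), Trp53inp1 (-0.078) and Gadd45a (-0.075), and each lost its call without the Xray-named H2AX library, with ratios of -0.15, -0.071 and -0.069. The Gadd45a call was also lost without the NT-named H2AX library (-0.082) or the NT-named input library (-0.063). The Trp53inp1 call was also lost without the NT-named (-0.072) or the Xray-named input library (-0.084). Among the higher bins of p53 targets, the one beginning at chr10:117000001 (0.076) lost its call as well. This happened without the Xray-named H2AX library (0.062), the NT-named input (0.083) or the Xray-named input (0.069).

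Very long genes of the kind found at fragile sites, which break under replication stress, were lower in 14 of 26 bins and higher in 7, 53.8% and 26.9%, against 41.3% and 34.7% of all bins (median -0.088). Their bins held a median of 1 gene start, and of all bins with 1 to 4, 57.7% were lower and 17.5% higher. The 7 higher bins include the bin of Dlg2, whose call rested on both H2AX libraries, and that of Fhit, at 0.060 in the fit. The Fhit call was lost when any single library was left out. Its ratio was 0.034 without the Xray-named H2AX library, 0.085 without the NT-named one, and 0.048 and 0.071 without the NT-named and Xray-named input. Ccser1, Csmd3 and Dpyd bins were at -0.24, -0.20 and -0.19, and those of Cdh13, Wwox and Auts2 at 0.34, 0.24 and 0.19. The Ccser1 call was lost without the Xray-named H2AX library (-0.19). Each of these except Wwox was the only protein-coding gene counted in its bin, so bins of equal gene count spanned the range. A gene this long reaches into other bins, and its counted bin may hold its end. Imprinted genes, which are expressed from 1 parental copy, lay in 16 bins, of which 11 were higher (68.8%) and 2 lower (12.5%), with a median of 0.097, from 0.30 for the bin of Nnat to -0.19 for that of Peg10. The imprinted bins held a median of 9.5 gene starts. Of all bins, 33.8% of those with 5 to 9 genes and 58.8% of those with 10 to 19 were higher. Of the 5 bins with histone gene clusters, 2 were lower (40.0%, near the share of all bins), both in the large cluster of chromosome 13 (-0.16 for the bin of H4c11 and -0.14 for that of H1f1), and 1 was higher, that of H2aw on chromosome 11 (0.11). The 5 bins of the Hox clusters had a median of 0.035, with 2 higher (40.0%, near the share of all bins). The 7 bins of immunoglobulin and T cell receptor loci ranged from -0.20 (Trbc1) to 0.17 (Ighm).

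Neighbouring bins resembled each other. The correlation of the log2 ratio between bins was 0.72 at a distance of 1 Mb, 0.55 at 2 Mb, 0.35 at 5 Mb and 0.17 at 20 Mb, with from 2395 to 2034 pairs of bins that share their libraries. Called bins formed 214 runs of consecutive higher bins and 271 runs of lower bins, and 17 and 23 of these were at least 10 bins long. The longest higher run spanned 41 bins at chr5:110000001-151000000, with a mean log2 ratio of 0.26, 554 genes, and 0.47 in the third pair. The next, 34 bins at chr4:123000001-156508116, holds 542 genes and also averaged 0.26. The longest lower run spanned 29 bins at chr16:49000001-78000000, with a mean of -0.20, 94 genes, and -0.43 in the third pair, and a run of 16 bins at chr15:39000001-55000000 with 40 genes averaged -0.26. The 95 bins among the last 5 of each chromosome had a median of 0.072, with 49 higher (51.6%) and 30 lower (31.6%), against a median of -0.016 and shares of 34.7% and 41.3% over all bins. They held a median of 7 gene starts, beside 5 over all bins. The very last bins, 19 in all, went the other way, with a median of -0.061, 4 higher (21.1%) and 9 lower (47.4%). These held a median of 3 gene starts. The 95 bins among the first 5 of each chromosome had a median of -0.029, with 29 higher (30.5%) and 40 lower (42.1%), near the shares of all bins.

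Summed by chromosome, 16 of 19 differed from input (edgeR adjusted p under 0.05), 84.2%, with 8 higher and 8 lower. Chromosome 11 was the highest and held 4.36% and 4.46% of H2AX reads, against 4.095% and 4.101% of input reads, a log2 ratio of 0.11 ± 0.01 (SE, n = 2 libraries each, edgeR adjusted p = 0.000204). Chromosome 7 followed with 4.55% and 4.66% in H2AX, against 4.36% and 4.38% in input (0.076), then chromosomes 5 and 17, at 0.047 each. Chromosome 3 was the lowest, with 5.75% and 5.71% of H2AX reads, against 6.13% and 6.11% of input reads (-0.095). Chromosomes 13, 10 and 16 followed at -0.058, -0.049 and -0.044. Smaller ratios past the threshold were found for chromosomes 9 (0.029), 19 (0.027), 4 (0.025), 8 (0.020), 1 (-0.025), 15 (-0.020), 18 (-0.019) and 6 (-0.018), while chromosomes 12 (0.019), 14 (0.013) and 2 (-0.015) did not pass. Of these small ratios, some rested on 1 H2AX library. Without the Xray-named one, chromosome 4 was at 0.014, chromosome 9 at 0.044 and chromosome 8 at 0.0095 with its call lost. Without the NT-named one, chromosome 9 was at 0.013, chromosome 8 at 0.030, chromosome 15 at -0.013 and chromosome 18 at -0.010 with its call lost. Leaving out the chromosome 2 bin with the most reads put chromosome 9 at 0.026 and ended its call (edgeR adjusted p = 0.139). The bins chr9:3000001-4000000, chr9:35000001-36000000 and chr14:19000001-20000000 held 43.3, 27.2 and 39.0 times the input reads of the median bin. Their part in the ratios of chromosomes 9 and 14 was not tested.

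Chromosomes were far from uniform inside: 7.88% of the variance of the bin ratio lay between chromosomes. Chromosome 4 averaged near 0 and yet held 4 of the 10 highest bins and, at -0.51, 1 of the 10 lowest. On chromosome 11, 60.5% of bins were higher and 21.8% lower, and on chromosome 3, 10.2% were higher and 66.9% lower. Over the 19 chromosomes the log2 ratio correlated with the number of genes per bin at r = 0.74 and rho = 0.72, a description, since the chromosomes share the same libraries. The third pair gave 0.21 for chromosome 11 and -0.16 for chromosome 3, but -0.0039 for chromosome 9 and -0.076 for chromosome 14. The calls rested on few libraries: without the NT-named or without the Xray-named input library edgeR called 0 chromosomes, with 2 each at an unadjusted p under 0.05, while limma called 10 with all 4 libraries. With TMM or DESeq2 size factors, 9 chromosomes were higher and 4 lower.

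**Figure D4:**
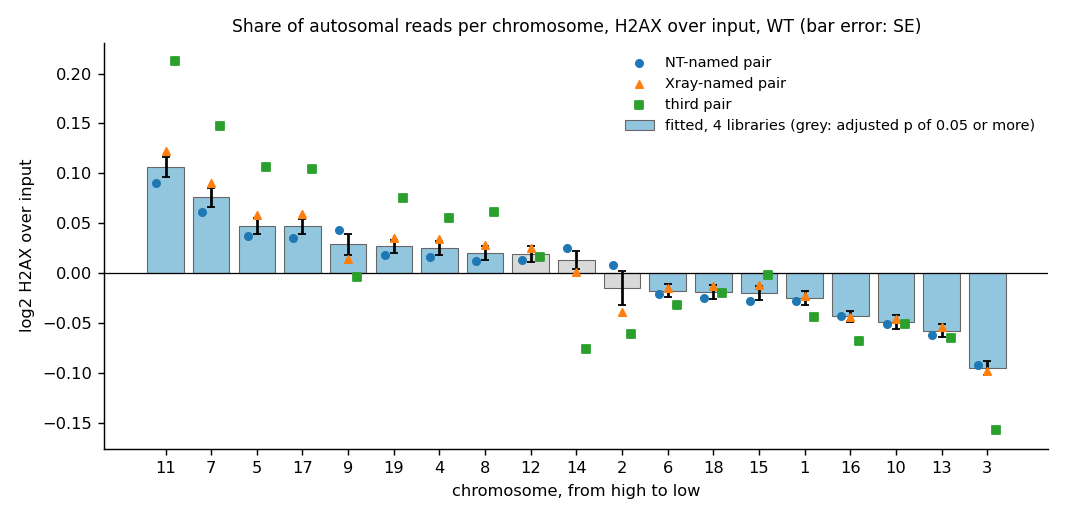
Log2 H2AX over input of the share of autosomal reads on each chromosome (y axis), ordered from high to low, with bars for the fit to 4 WT libraries, error bars of 1 SE and symbols for each WT library pair. Chromosome 11 leads at 0.11 and chromosome 3 ends at -0.095, and the third pair is further out at both ends.

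The parental counts gave the share of the hybrid's 2 genomes, called genome1 and genome2 in the deposited files, which do not name their strains. They were taken from the second table, whose replicates 1 (the third pair) and 2 (the NT-named pair) carry sample names. Shares are given in that order. Of the kept reads, 57.3% and 54.5% in H2AX and 50.5% and 55.02% in input were assigned to a parent. Genome1 took 54.2% and 54.1% of assigned reads in H2AX, against 54.02% and 54.02% in input.

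The parental mix of a bin varied widely and alike in both assays. The mean genome1 share in input ran from 0.597% to 99.8% over 2413 bins, and on whole chromosomes from 29.5% on chromosome 16 to 68.0% on chromosome 3. In 46 bins, 39 of them on chromosome 2, a parent held under 10% of the assigned input reads. The log2 ratio of genome1 to genome2 had an SD of 1.105 over bins in H2AX and 1.111 in input, and the 2 correlated at r = 0.998, a description over bins that share their libraries.

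Beyond the input, few bins differed. The ratio of ratios (genome1 over genome2 in H2AX, divided by the same in input) had an SD of 0.068 on the log2 scale, and it was under 0.1 in size in 92.3% of bins. It passed the threshold in 130 of 2413 bins (edgeR, adjusted p under 0.05), 5.39%, 65 toward genome1 (2.69%) and 65 toward genome2 (2.69%). Of these 130, 87 had lower (66.9%) and 19 had higher (14.6%) total H2AX than input, against 41.3% and 34.7% of all bins. Calls numbered 59 without the third pair's H2AX library, 66 without its input library and 52 without the NT-named input library.

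Among bins toward genome1, that of Cntn6, a neural adhesion gene (chr6:104000001-105000000), had genome1 shares of 62.0% and 59.4% in H2AX, against 53.02% and 52.8% in input, a log2 ratio of ratios of 0.44 ± 0.04 (SE, n = 2 libraries each, edgeR adjusted p = 6.61e-16). The bin of Bmp2, a bone morphogenetic protein (chr2:133000001-134000000), had 84.1% and 81.3% in H2AX, against 77.7% and 77.9% in input (0.42). A bin with no coding gene start, chr2:141000001-142000000, had 63.5% and 61.5% in H2AX, against 56.4% and 56.5% in input (0.35). A bin of olfactory receptor genes, chr7:108000001-109000000, had 69.7% and 68.4% in H2AX, against 64.3% and 64.4% in input (0.29). The bin of chromosome 2 that takes over 6% of all reads had the largest value, 0.62, with 90.9% and 92.9% in H2AX, against 88.3% and 88.5% in input. It rested on 1031 and 2207 reads of genome2 in H2AX and 3262 and 5961 in input, and it was 0.38 without the NT-named H2AX library.

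Toward genome2, 4 of the 5 lowest bins lay on chromosome 2 where genome1 held over 97% of input reads, so that few genome2 reads set the ratio. The bin of Ano3, an anoctamin, and the solute carrier Slc5a12 had 97.2% and 97.7% in H2AX, against 98.1% and 98.5% in input (log2 ratio of ratios -0.60), with 204 and 384 genome2 reads in H2AX and 270 and 389 in input. The bin of Ttn, the muscle protein titin, was at -0.55 from 93 and 119 genome2 reads in H2AX and 77 and 134 in input. Both calls were lost without the third pair's H2AX library, at -0.50 for Ano3 and -0.34 for Ttn, and without the NT-named input library, at -0.39 and -0.57. Without the NT-named H2AX library the Ttn bin was at -0.87. The remaining bins of these 4, those of Itgav and Lgr4, were at -0.51 and -0.50. Each lost its call without the third pair's H2AX library, at -0.40 for Itgav and -0.38 for Lgr4. The Itgav call was also lost without the NT-named input library, at -0.44. The bin of Vwc2l, chr1:70000001-71000000, rested on more reads: genome1 held 32.7% and 33.8% in H2AX, against 38.9% and 38.96% in input (-0.36 ± 0.04). Among the 16 bins of imprinted genes, whose ratios of ratios ran from -0.081 to 0.084, 1 passed the threshold, that of Gnas, the gene of a G protein subunit (0.084), with genome1 shares of 60.4% and 60.4% in H2AX, against 58.9% and 59% in input.

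By chromosome, 2 of 19 differed (edgeR adjusted p under 0.05), 10.5%. Genome1 shares on chromosome 14 were 58.5% and 57.7% in H2AX, against 57.6% and 57.4% in input (log2 ratio of ratios 0.027), and on chromosome 10 they were 56.69% and 56.67% in H2AX, against 56.88% and 56.91% in input (-0.020). The chromosome 14 value was 0.0096 without the third pair's H2AX library and 0.045 without the NT-named one. Without the third pair's H2AX library, its input library or the NT-named input library edgeR called 0 chromosomes, with 1, 1 and 0 at an unadjusted p under 0.05. Without the NT-named H2AX library it called 6, and with both parental columns scaled to their joint total it called 1.

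**Figure D5:**
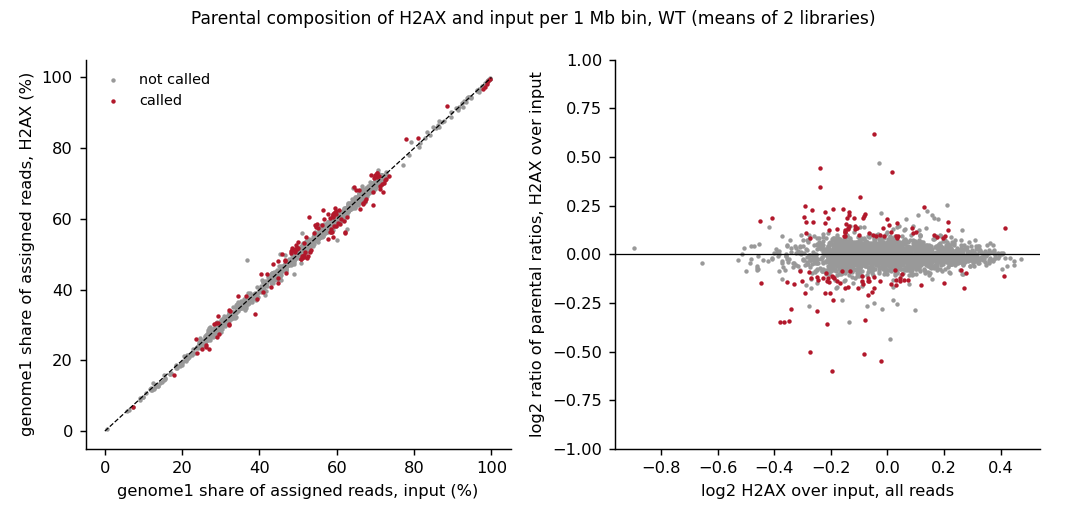
Left, mean genome1 share of assigned reads in H2AX (y axis) against input (x axis) per bin, in percent, with a dashed line of equal shares, along which the bins lie (r = 0.998 for the log2 ratios). Right, log2 ratio of parental ratios (y axis) against log2 H2AX over input of all reads (x axis), with the 130 called bins in red, 87 of them in bins with lower H2AX.

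The KO cells had nearly the same H2AX pattern. The SD of their log2 ratio was 0.14 and 0.16 in the NT-named and Xray-named pairs, and 98.4% of the bins called higher and 99.4% of those called lower in WT had the same sign in KO. KO minus WT differed in 40 of 2414 bins (edgeR, test of the difference of ratios, adjusted p under 0.05), 1.66%, 18 higher (0.746%) and 22 lower (0.911%) in KO, and it was under 0.1 in size in 96.8% of bins. Of the 40, 45.0% were higher in KO, and with TMM factors 60.0% of 45. By chromosome, 0 of 19 (0.0%) differed, with 0 at an unadjusted p under 0.05 in edgeR and 0 called by limma. TMM factors gave 7 chromosomes, all higher in KO, leaving out the NT-named WT H2AX library gave 10 and leaving out the Xray-named one gave 1. The bin count was unstable. It was 537 without the NT-named WT H2AX library and 97 without the Xray-named one. Without the NT-named or Xray-named WT input it was 17 or 22, without either KO H2AX library it was 22, and without the NT-named or Xray-named KO input it was 13 or 14.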

How the data were processed

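The authors deposited raw read counts in 1 Mb bins of build mm10, for all reads and for each parental genome. Per the submitters' processing notes, the tools included Bowtie2 2.2.9, deepTools 2.4.2, MACS2 2.2.7.1, SAMtools 0.1.19, Trimmomatic 0.36 and FastQC 0.11.3, and no settings are known here, nor how repeats, duplicates and parental assignment were treated. Values came from 24 columns, and 120 others were left aside.

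Counts were scaled to autosomal totals and tested with edgeR 4.0.16 in R 4.3.3 (quasi-likelihood, two-sided, Benjamini-Hochberg over bins or the 19 chromosomes). The alternatives were limma 3.58.1, DESeq2 1.42.0, other scalings and filters, and leaving out each library. In the parental fit each library was a block. That fit was planned for the NT-named and Xray-named libraries, but their parental columns match no single sample, so it was made on the second table's WT replicates, a change made after the values of both tables had been seen. In simulated H2AX over input counts on 2414 bins, a 1.05-fold change was recovered in 50% of altered bins and a 1.1-fold change in 100%. The same for parental ratios on 2413 bins gave 8% and 44%, and for KO minus WT on 2414 bins 6% and 78%. Of the unaltered bins, 13, 4 and 10 were called in the same order. The simulations took their spread from total counts of the NT-named and Xray-named WT libraries. That spread leaves out the third pair and the KO libraries, so these rates do not give the recovery in the parental and KO minus WT fits. It was also the same for every bin and independent between libraries. In the data, the NT-named minus Xray-named difference in H2AX followed the fitted ratio (r = -0.80). The rates for H2AX over input thus hold for the simulated setting only.

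The text names the 10 highest and 10 lowest bins, the 5 highest and 5 lowest for parental ratios and KO minus WT, and bins of listed genes. All of these except the bins of listed genes had to pass the adjusted p threshold. For total H2AX and parental ratios, both H2AX libraries also had to lie beyond both input libraries. The Sirt7 bin, neighbours of named bins and bins with very many input reads are named as well, whether or not they passed. A gene counts in the bin that holds the lower coordinate of its span in the GRCm38.p6 annotation, whichever its strand. Promoters were placed by their own position. Members and lists were chosen with earlier results of these data known.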

Additional observations from a re-analysis of the deposited data

Results flagged for a closer look

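By the test of the difference itself, the log2 ratio of H2AX over input differed between KO and WT in 40 of 2414 bins (1.66%). The 10 named here are the 5 most positive and the 5 most negative. The 5 with the largest positive difference were the bins of Marcks, a membrane-bound kinase substrate (0.26), of Grik2, a glutamate receptor (0.24), a gene-free bin next to it (0.23), and the bins of Tacr3, a tachykinin receptor (0.21), and Ccdc7b (0.20). The Marcks bin had ratios of -0.031 and -0.072 in KO cells. In WT cells it had -0.30 and -0.34, and the KO ratio was likewise nearer to 0 in the other 4 bins. Input reads also differed there, at 576 and 586 RPM in KO against 522 and 517 in WT, and H2AX reads were at 563 and 558 in KO against 425 and 409 in WT. The part of the input in the difference was not tested.

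The 5 most negative differences were those of the bin of Flrt2, an adhesion protein (-0.28), the gene-free bin before it (-0.24), the chromosome 1 bin of Col19a1 (-0.23), a gene-free bin of chromosome 2 (-0.22) and the bin of Antxr2, an anthrax toxin receptor (-0.18). The Flrt2 bin had ratios of -0.39 and -0.38 in KO cells. In WT cells it had -0.089 and -0.12, but -0.34 in the third WT pair, nearer to KO. The gene-free bins were at -0.42 and -0.43 in the third WT pair, below both KO pairs. The Col19a1 bin was at -1.12 in each KO pair, against -0.89 and -0.90 in the WT pairs, and its mitochondrial counts are given with that bin. Leaving out the NT-named KO input library ended 3 of the 10 calls, and leaving out the Xray-named one ended 2.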

How the results depend on the processing

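All bins called in WT kept their direction in each alternative fit run. Scalings, filters, limma and DESeq2 gave 1822 to 1979 bins, and 12 libraries sharing a spread gave 1384. TMM factors put the median of all bins at -0.0034, against -0.016 with autosomal totals. The second table's WT pairs gave 0 bins and 0 chromosomes in edgeR (649 and 6 at an unadjusted p under 0.05) but 994 bins in DESeq2, chosen after seeing the data, as were limma and leaving out the largest bin. Chromosome calls fell to 5 with 12 libraries and 10 with limma, parental ones to 1 with joint totals, and KO minus WT gave 7 chromosomes with TMM factors. For bins, TMM factors shared 36 of the 40 KO minus WT calls. The cause of these shifts was not tested.

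With a replicate block by column name, 1912 bins, 10 chromosomes and 193 KO minus WT bins were called, and 691 bins with a block on the second table's pairs. Deviations of same-named H2AX and input libraries correlated at r = 0.48 in WT and 0.11 in KO, and 2 pairs do not establish that the names pair the samples.

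Leaving out 1 library each gave 930 to 1489 bins, 0 to 17 chromosomes, 52 to 149 parental bins, 0 to 6 parental chromosomes, 13 to 537 KO minus WT bins (22 without either KO H2AX library or the Xray-named WT input, 14 without the Xray-named KO input, 97 without the Xray-named WT H2AX) and 0 to 10 KO minus WT chromosomes (1 without the Xray-named WT H2AX). Counting error in the NT-named H2AX library was 0.406% for the median bin, and some parental ratios rested on few reads. The part of depth in these results was not tested.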
